A study of Mus musculus with 2 samples.

Results

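The forkhead, LIM-homeobox, paired-box, sine oculis, T-box, NK, distal-less and Iroquois genes encode transcription factors that set cell identity during development. They were followed here in a map of open chromatin of the mouse testis. Members were the protein-coding genes of GENCODE vM21 whose symbols begin with Fox, Lhx, Pax, Tbx, Nkx, Dlx or Irx followed by a gene's letter or number, and the numbered sine oculis genes, which gave 106 of 21911 genes. The 8 families held 44 Fox, 14 Nkx, 13 Tbx, 9 Pax, 8 Lhx, 6 sine oculis, 6 Dlx and 6 Irx genes. No measured value was used to choose them.

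DNase-seq cuts accessible DNA in nuclei with DNase I and sequences the ends, so that a peak marks a stretch that was cut more often than its surroundings. The testes came from male B6CASTF1/J mice aged 14 days, first-generation offspring of C57BL/6J and CAST/EiJ parents, with no treatment or altered gene named in the labels. There was 1 group of 2 libraries, numbered as biological replicates 1 and 2. The label of replicate 1 names 3 males, that of replicate 2 gives no number, and both carry 1 donor label. Any difference between them may in part be technical. With a single group there was no contrast between conditions, and the members were described against all genes. The whole tissue was used, so fewer open cells and less opening in each cell cannot be told apart.

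Genes of this kind are known for promoters rich in CpG dinucleotides that Polycomb complexes keep silent outside the tissue where each factor acts. Forkhead proteins bind DNA as monomers through a winged helix, and T-box, paired-box and homeobox proteins each through the domain that names them. In the testis, FOXO1 and several other forkhead factors are known from spermatogonia and their descendants, while LHX9 and SIX4 are known from the formation of the gonad. At this age the first wave of spermatogenesis has reached meiosis and the Sertoli cells are maturing.

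Each gene was given a promoter value in each library. It is the highest signal value, as set by the authors, among the listed peaks that overlap 1000 bp on either side of any annotated start, or 0 where none does. A gene with such a peak in each library counts as open. The libraries listed 101172 and 117359 peaks with a median value of 0.543 and 0.506. All values below 1 were, within 0.05 of a step, whole multiples of a small step of 0.00538 in replicate 1 and 0.00377 in replicate 2. The weakest members with a peak stood at 0.301 in replicate 1 and 0.242 in replicate 2, which is 56 and 64 steps. The sources used here do not say what a step counts, so no counting interval was set on a value.

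The labelled tissue was checked against markers. The germ cell genes Ddx4, Dazl, Sycp3 and Stra8 were open in 4 of 4, with a median of 9.29 ± 0.32 (SD of the 2 libraries), and the Sertoli cell genes in 4 of 4 with 2.54 ± 0.23. Leydig cell genes were open in 4 of 4 at a median of 0.701, with 3 of them below 1, and myoid cell genes in 2 of 2. Among peaks with a false discovery rate below 0.001, 2 of the 4 Leydig cell genes stayed open. The background was 68.7% of all protein-coding genes open, with a median value of 1.36 over all, so being open does not by itself mark a cell type. Of endothelial markers Cdh5 was open and Pecam1 had no peak, and of leukocyte markers Ptprc was open at 0.259 and Adgre1 had no peak. Among 5 markers of other tissues, Neurod1 was open at 0.344 and Alb, Myod1, Krt5 and Sftpc had no peak.

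The letters under the strongest promoter peak of each family show what was open, and 2 more genes with known roles in ciliated and gonadal cells were added after their values had been seen. Each sequence was read from the reference genome (GRCm38.p6, the same build as mm10), not from the mice, on the strand of its gene from 5′ to 3′. Capitals mark bases inside footprints, short protected stretches that the authors called in replicate 1. Stretches annotated as UTR were left out, so Lhx3 and Dlx2 stand in for Lhx2 and Dlx1, whose strongest peaks lay in UTR exons. The remaining peaks were cut to at most 300 bases.

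Foxn3 promoter peak (chr12:99392041-99392220, minus strand): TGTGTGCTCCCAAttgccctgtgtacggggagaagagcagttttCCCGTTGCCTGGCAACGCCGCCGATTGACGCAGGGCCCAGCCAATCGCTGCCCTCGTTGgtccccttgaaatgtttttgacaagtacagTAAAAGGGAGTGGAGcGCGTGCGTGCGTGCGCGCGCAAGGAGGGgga
Lhx3 promoter peak (chr2:26208290-26208380, minus strand): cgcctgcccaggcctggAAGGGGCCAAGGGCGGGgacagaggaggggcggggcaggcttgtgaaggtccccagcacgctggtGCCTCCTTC
Pax5 promoter peak (chr4:44704441-44704680, minus strand): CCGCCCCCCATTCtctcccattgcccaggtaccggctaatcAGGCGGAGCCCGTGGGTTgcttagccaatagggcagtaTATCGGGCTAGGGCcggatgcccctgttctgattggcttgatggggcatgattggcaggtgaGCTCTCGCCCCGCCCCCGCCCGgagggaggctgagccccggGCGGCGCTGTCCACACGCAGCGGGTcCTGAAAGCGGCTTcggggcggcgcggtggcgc
Six5 promoter peak (chr7:19093921-19094220, plus strand): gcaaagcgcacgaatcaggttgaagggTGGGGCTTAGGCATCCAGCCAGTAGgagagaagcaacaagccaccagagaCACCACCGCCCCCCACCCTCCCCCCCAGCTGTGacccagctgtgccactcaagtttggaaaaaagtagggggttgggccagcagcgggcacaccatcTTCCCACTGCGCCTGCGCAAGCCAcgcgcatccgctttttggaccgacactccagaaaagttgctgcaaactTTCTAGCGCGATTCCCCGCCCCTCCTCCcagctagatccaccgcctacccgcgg
Tbx6 promoter peak (chr7:126780701-126780880, plus strand): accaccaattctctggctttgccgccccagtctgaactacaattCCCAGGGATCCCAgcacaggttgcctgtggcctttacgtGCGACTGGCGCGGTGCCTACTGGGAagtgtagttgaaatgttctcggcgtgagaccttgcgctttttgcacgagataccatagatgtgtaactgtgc
Nkx6-1 promoter peak (chr5:101665321-101665540, minus strand): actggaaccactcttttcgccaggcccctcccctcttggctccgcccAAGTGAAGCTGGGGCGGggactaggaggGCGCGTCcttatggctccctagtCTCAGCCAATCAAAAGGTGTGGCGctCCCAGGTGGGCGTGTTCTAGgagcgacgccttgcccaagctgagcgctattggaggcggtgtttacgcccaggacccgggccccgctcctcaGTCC
Dlx2 promoter peak (chr2:71546755-71546960, minus strand): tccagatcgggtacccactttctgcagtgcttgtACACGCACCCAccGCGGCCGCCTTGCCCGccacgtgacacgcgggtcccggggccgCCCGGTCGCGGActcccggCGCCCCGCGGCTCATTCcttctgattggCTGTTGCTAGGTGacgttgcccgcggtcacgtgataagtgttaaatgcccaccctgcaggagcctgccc
Irx2 promoter peak (chr13:72628541-72628819, plus strand): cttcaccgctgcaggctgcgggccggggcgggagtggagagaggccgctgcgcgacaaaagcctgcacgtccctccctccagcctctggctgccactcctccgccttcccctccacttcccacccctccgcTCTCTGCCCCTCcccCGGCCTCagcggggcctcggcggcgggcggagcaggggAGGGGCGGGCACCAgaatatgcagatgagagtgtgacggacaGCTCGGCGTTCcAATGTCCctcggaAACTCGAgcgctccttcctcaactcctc
Foxj1 promoter peak (chr11:116335400-116335540, minus strand): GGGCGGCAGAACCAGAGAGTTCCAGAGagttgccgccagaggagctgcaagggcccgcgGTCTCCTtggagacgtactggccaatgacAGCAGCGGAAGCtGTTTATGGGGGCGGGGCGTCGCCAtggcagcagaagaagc
Lhx9 promoter peak (chr1:138841521-138841820, minus strand): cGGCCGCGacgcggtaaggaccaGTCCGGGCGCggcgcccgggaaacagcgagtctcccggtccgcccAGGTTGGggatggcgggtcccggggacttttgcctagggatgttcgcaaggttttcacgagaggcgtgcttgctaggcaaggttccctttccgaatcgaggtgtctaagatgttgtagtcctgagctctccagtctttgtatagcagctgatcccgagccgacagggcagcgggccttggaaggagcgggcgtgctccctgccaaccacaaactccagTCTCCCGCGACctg

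These stretches were rich in G and C, from 53.9% in Tbx6 to 72.5% in Lhx3, and held between 4 CpG dinucleotides in Lhx3 and 27 in Lhx9. Between 35 of 300 printed bases in Lhx9 and 115 of 180 in Foxn3 lay in footprints. The letters CCAAT, on either strand, occurred in 7 of the 10 sequences, those of Foxn3, Pax5, Tbx6, Nkx6-1, Dlx2, Irx2 and Foxj1. The forkhead letters TGTTTAC occurred in Nkx6-1, outside its footprints.

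Most of the developmental regulators had a promoter peak, and the peak was usually weak. Of 106 members, 83 (78.3%) were open, against a background of 68.7% of all protein-coding genes. The median promoter value was 0.699 and 0.670 in the libraries, with a mean of 0.684 ± 0.020 (SD, n = 2), while over all genes it was 1.36 ± 0.089. Among open genes the median was 0.983 for members and 3.85 for all genes. Of the open members 42 of 83 (50.6%) had a mean value below 1, against 21.0% of all open genes, and 12 (14.5%) reached 5 or more, against 42.3%. The members were concentrated at the low end of the range in which open promoters lay.

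**Figure D1:**
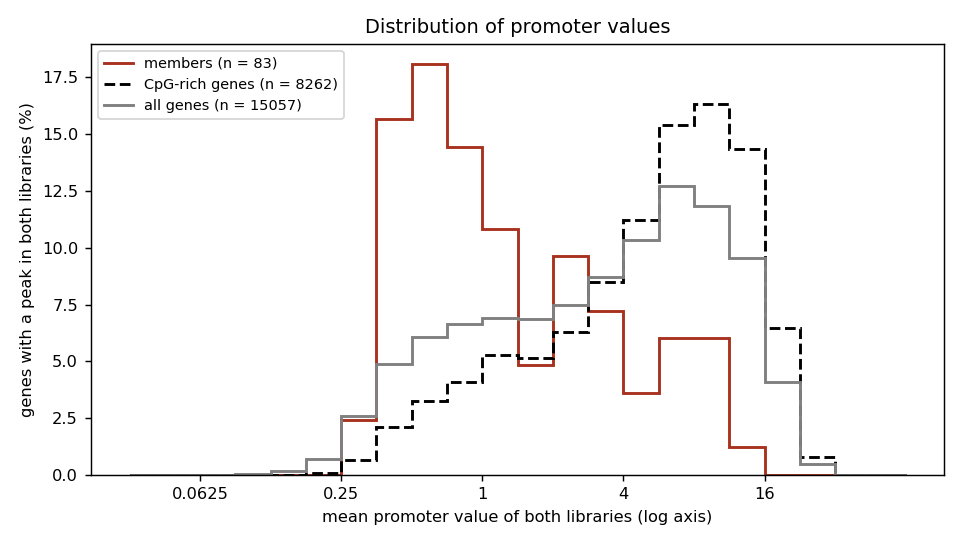
Distribution of the mean promoter value of both libraries (log axis) among genes with a peak in both, as percent of the 83 members, of 8262 genes with a CpG-rich promoter and of all 15057 such genes. The members' line is highest in bins below 1, whereas the other lines are highest in bins above 4.

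The members differed most from genes with promoters of similar base content. A promoter was called CpG-rich where the observed number of CpG dinucleotides reached 0.6 of that expected from base composition within 1000 bp of any start. By this measure 76 members (71.7%) were CpG-rich, against 38.5% of all genes. Among the CpG-rich, 67 of 76 members (88.2%) were open against 98.0% of genes, and their median was 0.897 ± 0.026 against 5.95 ± 0.46 (SD, n = 2). Of the open CpG-rich genes, 10.2% of all were below 1 and 57.5% reached 5, whereas all 12 members at 5 or more were CpG-rich and made up 17.9% of 67. Of the 30 other members 16 were open (53.3% against 50.4% of other genes without CpG-rich promoters), and their median was 0.429 ± 0.009 against 0.287 ± 0.011. Their open promoters were weak too, with a median of 0.535 against 1.88 and 75.0% against 34.2% below 1, and the shorter list left 26.7% open against 43.3%.

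How the members compared with all genes depended on how strict the list of peaks was. The shorter list of the authors holds peaks with a false discovery rate below 0.001 and the longer list, used throughout, peaks below 0.05. In the shorter list 60 members (56.6%) were open, now below the 63.4% of all genes, and 52 of 76 CpG-rich members (68.4%) against 95.5%. Counting only peaks at or above the library's median value gave the same order, 57.5% of members against 61.4% of genes. The share of open members was thus above that of all genes only while peaks of low value were counted.

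The families differed in strength and in how many genes were open. Open shares ran from 8 of 14 Nkx genes (57.1%) and 6 of 9 Pax genes (66.7%) to 37 of 44 Fox genes (84.1%) and 7 of 8 Lhx genes (87.5%), with 10 of 13 Tbx (76.9%) and 5 of 6 each of the sine oculis, Dlx and Irx genes (83.3%) between them. In the shorter list the shares ran from 35.7% of Nkx genes (5 of 14) to 75.0% of Lhx genes (6 of 8). Tbx had 6 of 13 (46.2%), and Dlx and Irx had 3 of 6 each. The background was 68.7% of all genes and 98.0% of CpG-rich ones, and in the shorter list 63.4% and 95.5%. CpG-rich promoters made up 100% of Lhx, 83.3% of sine oculis and of Irx, and 79.5% of Fox genes. They made up 66.7% of Pax and of Dlx, 50% of Nkx and 46.2% of Tbx genes. The part of promoter class in the order of families was not tested. The Fox genes had the highest median, 1.05 ± 0.012, and open Fox genes ran from 0.344 to 13.7. The sine oculis, Lhx and Dlx genes had 0.803 ± 0.044, 0.794 ± 0.006 and 0.794 ± 0.071, close to each other. Pax at 0.581, Irx at 0.552 ± 0.041 and Tbx at 0.531 ± 0.009 were also close, and Nkx had 0.426 ± 0.010. The SD is that of the 2 library medians and not of the genes in a family, so whether families differ beyond the spread of their genes was not tested. Of the 12 members at 5 or more, 10 were Fox genes, and the others were Pax5 and Six5.

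**Figure D2:**
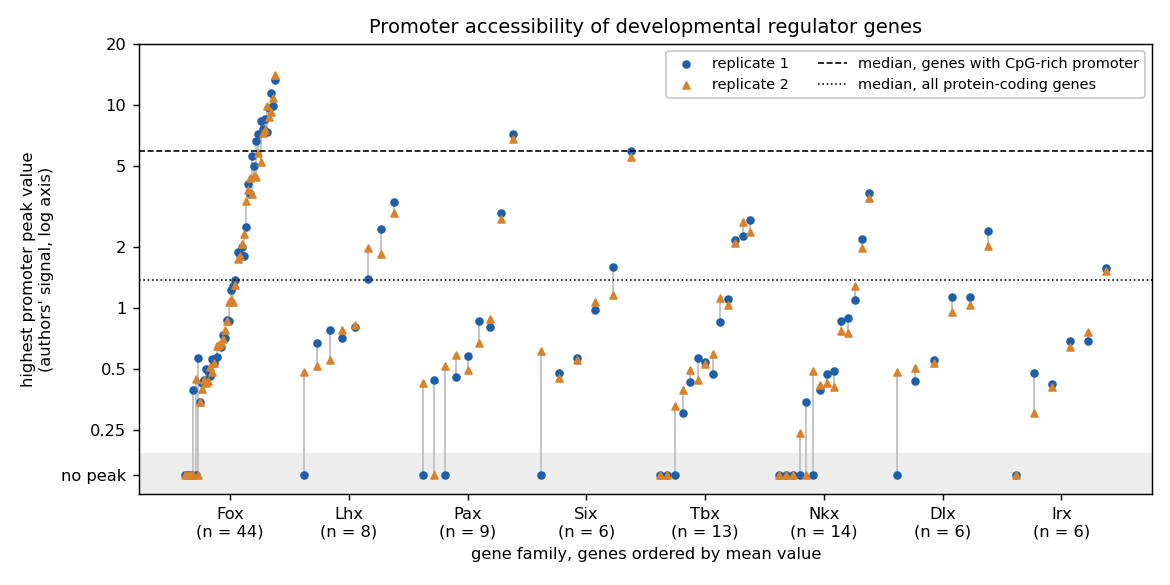
Promoter value (log axis) of every member in replicate 1 (circles) and replicate 2 (triangles), joined by a line and ordered within each family; values of 0 stand in the grey band. Fox genes fill the range from no peak to 14.1, and in the other families the only genes above 5 are Pax5 and Six5.

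**Figure D3:**
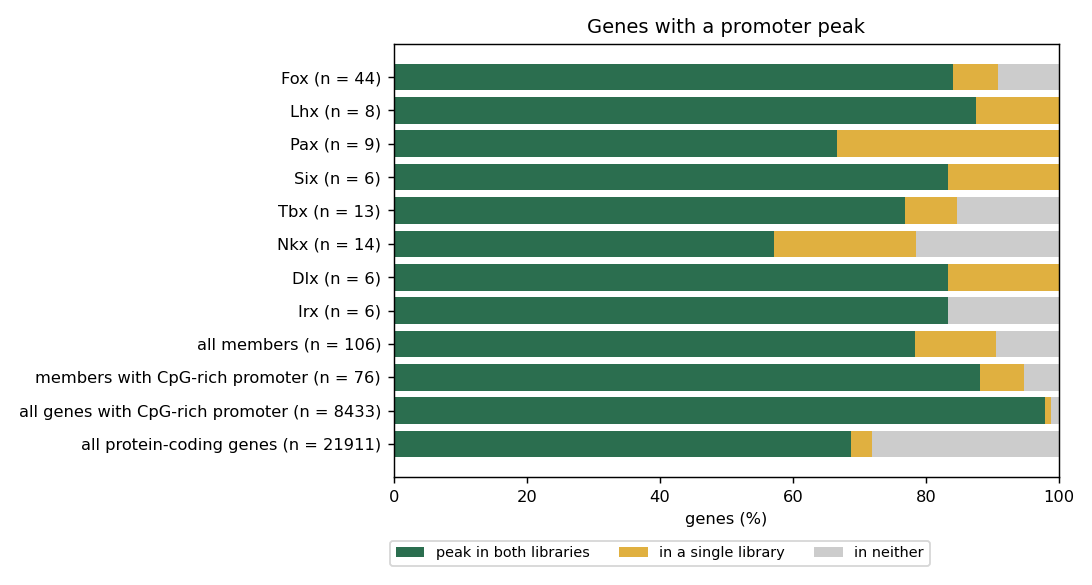
Percent of genes with a promoter peak in both libraries, in a single library or in neither, by family, for all 106 members, for CpG-rich members and genes, and for all 21911 genes. Nkx has the lowest share in both (57.1%), and Pax, at 3 of 9 genes, the highest share in a single library.

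The strongest members included genes used in most cell types. The broadly expressed list held the checkpoint suppressor Foxn3, its relative Foxn2, the nutrient-responsive repressors Foxk1 and Foxk2, and Six5. It was open in 5 of 5 at a median of 6.92 ± 1.99 (SD, n = 2). All 5 were CpG-rich, a class open in 98.0% of genes at a median of 5.95, against 68.7% at 1.36 over all genes. Foxn3 led all members with 13.3 and 14.1, from a peak in an intron, 942 bp from an internal start and 171 kb from the 5′ end of the gene. Narrower windows of 500 bp gave it a mean of 3.68, and counting its 5′ end alone 1.83, below Foxo6, which had 10.3 either way. Foxn2 had 8.57 and 7.54, and Six5, the neighbour of the myotonic dystrophy kinase gene, 5.94 and 5.51. Foxk2 stood at 8.33 and 5.25 and Foxk1 at 6.63 and 4.39, so replicate 1 was the higher library for both. With the library medians set equal, these were among the largest differences between libraries, -0.59 and -0.52 on the log2 scale. The others in that group were Irx6 (-0.59), Lhx6 (0.58) and Foxo1 (-0.54), while the median over open members was close to 0.

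The genes listed for germ cells had the highest median of the lists tied to a tissue, counting promoters without a peak as 0. It overlapped with that of thymus and blood (2.05 ± 0.37) within the spread between libraries. Of 12 genes known from germ cells, 11 of them CpG-rich, 11 were open in the longer and in the shorter list (91.7%). The background was 68.7% and 63.4% of all genes and 98.0% and 95.5% of CpG-rich ones, so the share itself was not above that of CpG-rich genes. The values had a median of 2.25 and 2.72 in the 2 libraries (2.48 ± 0.33), below the 5.95 of CpG-rich genes. Of the 11 open genes, 3 had a mean below 1. The list was drawn up from known roles, and whether its genes are open in germ cells alone was not tested. Foxo3, which holds primordial follicles of the ovary at rest, had 9.89 and 10.8, and a mean of 3.66 with windows of 500 bp. Foxo1, a factor of spermatogonial stem cells, had 5.58 and 3.64, and Foxo4, on chromosome X, 3.62 and 4.34. These FOXO factors are restrained by insulin and PI3K signalling, and each gene stood above the members' median in both libraries.

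Foxj3, known from the survival of spermatogonia and from meiosis, had 7.59 and 7.29. Its strongest peak lay over an internal start, 2.6 kb from the 5′ end, and it was shared with the start of Frg2f1. Foxj2 of meiotic cells had 2.51 and 3.36. Foxm1, a driver of genes of the G2 phase and mitosis, had 4.06 and 3.83 from a peak shared with the start of Rhno1. Without peaks that overlap the promoter window of another protein-coding gene, Foxm1 had a value of 0 and Foxj3 a mean of 0.148. Foxj3 also had 0 with its 5′ end alone, where Foxj2 had a mean of 1.31.

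The other germ cell genes were lower. Foxc2, a marker of quiescent spermatogonial stem cells, had 2.00 and 2.07 and Foxp4 1.83 and 1.79, with libraries close to each other. Foxr1 had 0.860 and 1.06. Lhx1, induced by GDNF in stem cell cultures, had 0.710 and 0.778, and Lhx8, a factor of oocytes, 0.672 and 0.517. Pax7, which marks a rare pool of spermatogonia, had no peak in replicate 1 and 0.513 in replicate 2. In both libraries Foxc2 and Foxp4 were above the members' median and Pax7 was the lowest of the list.

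**Figure D4:**
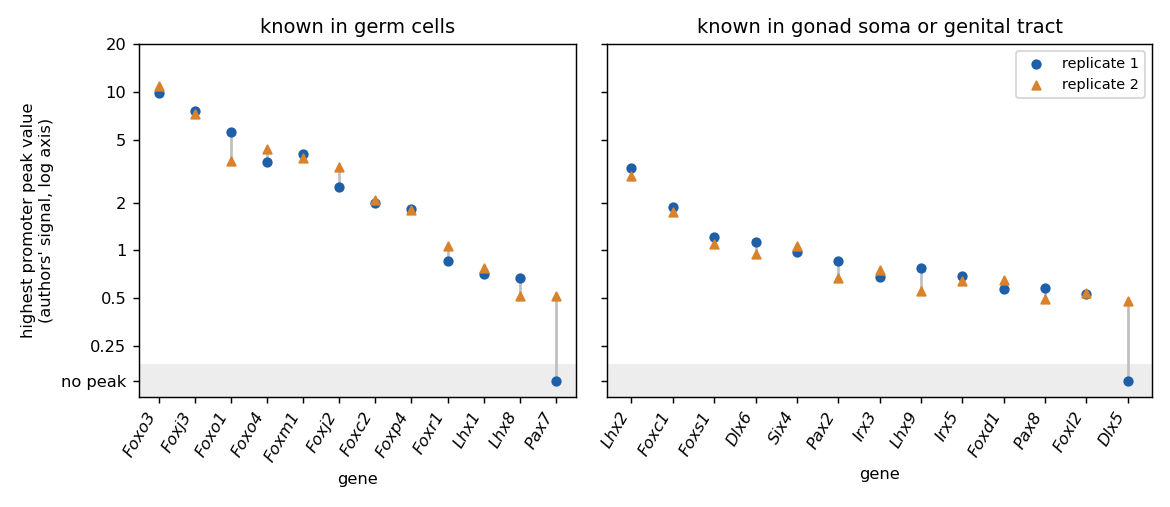
Promoter values (log axis) in replicate 1 (circles) and replicate 2 (triangles) of 12 members known in germ cells (left) and 13 of the 15 known in gonad soma or genital tract (right), ordered by mean; the grey band holds values of 0. The germ cell genes run from Foxo3 near 10 to Pax7, and the gonad genes from Lhx2 near 3 to Dlx5, which had a peak in replicate 2 alone.

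Regulators of the supporting cells and the genital tract were mostly open at low values. Of 15 such genes, 11 of them CpG-rich, 14 were open (93.3%), against the background of 68.7% of all and 98.0% of CpG-rich genes. In the shorter list 11 were open (73.3%), against 63.4% and 95.5%, and the list had a median of 0.808 ± 0.074 (SD, n = 2). Lhx2, which is expressed in the early gonad, was highest with 3.31 and 2.94, from a peak by an internal start, and had a mean of 0.38 with its 5′ end alone, below Foxc1 at 1.81. Foxc1 had 1.88 and 1.74, and Six4, which acts on Sry in the forming gonad, had 0.979 and 1.06. Foxs1 had 1.22 and 1.09. Lhx9, without which no gonad forms, had only 0.780 and 0.555, and its strongest peak was a different one in each library. The same held for 9 of the 83 open members, among them Foxa2, Foxl2, Foxp1, Foxs1 and Pax6.

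Factors of the ovary and the genital ducts had values of about 1 or less. Foxl2, the granulosa cell factor that opposes the Sertoli cell fate, had 0.532 from a peak of 583 bp over its start in replicate 1 and 0.536 from another of 502 bp in the coding exon in replicate 2, both near the start of the antisense gene Foxl2os. Pax2 had 0.860 and 0.672 and Pax8 0.581 and 0.494, both genes of the kidney and the genital ducts. Irx3 and Irx5, which act together in the ovary, had 0.683 and 0.755, and 0.688 and 0.638. Dlx6 was open at 1.13 and 0.955, and its neighbour Dlx5 had a peak in replicate 2 alone, at 0.483. Foxd1 had 0.570 and 0.649. None of these genes other than Dlx6 reached 1 in either library.

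Members known from organs outside the gonad were mostly weak. Of 20 regulators of brain, eye and ear, 15 were open (75.0%) and the other 5 had a peak in a single library. The background of open genes was 68.7% of all and 98.0% of CpG-rich ones. The shorter list left 12 of the 20 open (60%), against 63.4% of all genes. The 20 regulators had a median of 0.616 ± 0.020. The interneuron gene Dlx1 led them, followed by the LIM factors Lhx3 of the pituitary and Lhx6 of cortical interneurons, the neural crest gene Foxd3 at 1.38 and 1.29, and Dlx2. Dlx1 had 2.38 and 2.02, Dlx2 1.13 and 1.03, Lhx3 2.45 and 1.85, and Lhx6 1.38 and 1.97. With the 5′ end alone Dlx1 had a mean of 0.652 and Lhx6 of 0.475. Pax6, the eye regulator, had 0.806 and 0.876, all of it from internal starts, since the 5′ end alone gave 0.

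Heart, somite and limb genes had 12 of 16 open (75.0%, against 68.7% of all genes) at a median of 0.529 ± 0.031. In the shorter list 6 were open (37.5%, against 63.4%). Pax9, of teeth and the pharyngeal pouches, had 2.95 and 2.75, and with its 5′ end alone a mean of 0.354. The somite factor Tbx6 had 2.70 and 2.36, and with windows of 500 bp a mean of 0.283. Tbx2, with 2.25 and 2.64, and its relative Tbx3, with 2.17 and 2.10, are repressors known from the heart's conduction system and from the control of senescence. The cardiac factors Nkx2-5 with 0.473 and 0.423 and Tbx5 with 0.430 and 0.491 were near the lower end of open members.

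Genes of gut, lung, thyroid and pancreas were open in 8 of 12 (66.7%, against 68.7% of all genes), with a median of 0.602 ± 0.003. The shorter list left 5 open (41.7%, against 63.4%). Of the 12 genes 9 were CpG-rich, a class open in 98.0% of genes. Nkx6-1, of beta cells and motor neurons, had 3.70 and 3.47, and Nkx2-3 of the gut wall and spleen 1.10 and 1.28. Foxa3 had 9.71 and 8.70, but its peak lay 762 bp upstream and was shared with the start of Sympk, a gene for pre-mRNA processing. Foxa1 and Foxa2, pioneer factors of endoderm, had 0.710 and 0.774, and 0.489 and 0.434, with no gene sharing the peak.

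In the thymus and blood list 3 of 5 genes were open (60%), against 68.7% of all genes and 98.0% of CpG-rich ones. Of the 5 genes, 4 were CpG-rich. The 3 open genes had a median of 6.98, against 2.93 among the open germ cell genes. Foxp3, the regulatory T cell factor, had 7.35 and 9.92, from a peak 756 bp inside the gene that it shared with the start of Ppp1r3f. Pax5, the B cell factor, had 7.17 and 6.78, from an intron peak 5.93 kb from the 5′ end and 554 bp upstream of an internal start, with no other protein-coding start in reach. With the 5′ end alone its mean was 0.412. Foxp1 had 1.79 and 2.32, and Foxn1 and Tbx21 had no peak. The leukocyte markers lay at 0.259 for Ptprc and 0 for Adgre1. The part of blood cells in these peaks was not tested.

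Peaks shared with another protein-coding gene were few among members. Of the open members 5 of 83 (6.02%) had a strongest peak that also reached the promoter window of such a gene, against 18.7% of all open genes. Beside Foxa3, Foxj3, Foxm1 and Foxp3 this was the eye gene Six6, at 0.565 and 0.551, which shared its peak with 4930447C04Rik. Several further peaks lay near starts of noncoding genes, among them Foxd2os, Irx3os, Tbx3os1 and Fendrr, the last beside Foxf1.

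The 21 members outside the lists of known roles used here held both strong and weak promoters. Of these 15 were open (71.4%, against 68.7% of all genes), and the median of the 21 was 0.464 ± 0.021. The shorter list left 7 open (33.3%, against 63.4%), and 11 of the 21 were CpG-rich. Foxo6, a FOXO factor best known from brain, had 11.5 and 9.23. Foxj1, the master regulator of motile cilia, had 7.21 and 5.82 from a peak over its start, whose printed letters hold CCAAT and GTTGCC, an RFX half-site. Foxd2, near which Foxe3 lies, had 5.00 and 4.47. The Iroquois gene Irx2 had 1.56 and 1.51. The lowest open members were Foxi2 at 0.344 in both libraries and Tbx19, a pituitary factor, at 0.301 and 0.393.

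Promoter peaks were absent or seen once for 23 members. The 10 genes without a peak in either library were Foxl1, Foxn1, Foxq1, Foxr2, Irx4, Nkx2-1, Nkx2-6, Nkx6-3, Tbx10 and Tbx21. They were 10 of 106 members, against 6142 of all 21911 genes, and 6 of the 10 had no CpG-rich promoter. Their best known roles lie elsewhere, for example in the thymus epithelium (Foxn1), the heart ventricle (Irx4), the lung and thyroid (Nkx2-1) and T helper cells (Tbx21). The same holds for many open members, such as Nkx2-5, Tbx5 and Pax6, so it does not set these 10 apart. The Lhx, Pax, sine oculis and Dlx families had no gene without a peak in either library. A further 13 members (12.3%) had a peak in a single library, against 3.25% of all genes. In replicate 1 alone these were Foxh1 at 0.565, Foxi1 at 0.392, Nkx3-2 at 0.344 and Pax3 at 0.441. In replicate 2 alone they were Dlx5, Foxb1, Lhx5, Nkx1-2, Nkx2-9, Pax4, Pax7, Six3 and Tbx4, from 0.242 in Nkx2-9 to 0.608 in Six3. All 13 values lay below the members' median of 0.684, and replicate 2 was the library with more listed peaks.

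A missing peak did not always mean a track without signal. The authors' track of the false discovery rate of the cut rate lists stretches below 0.05, whether or not a peak was made from them. Of the member promoters without a peak, 3 of 19 in replicate 1 (15.8%) and 4 of 14 in replicate 2 (28.6%) held such a stretch, against 2.73% and 2.98% of all promoters without a peak. Among CpG-rich promoters without a peak it was 2 of 8 and 1 of 5 for members, against 15.0% and 14.5% for all genes. The members' counts are too small to set them apart from CpG-rich genes.

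The strongest promoter peak of a member often lay beside an annotated start. It covered a start for 37 of 87 members with a peak in replicate 1 (42.5%) and 38 of 92 in replicate 2 (41.3%), against 72.8% and 70.6% of all genes. Among members at a mean value of 1 or more the shares were 43.9% and 41.5%, against 78.2% and 76.2% of all genes at 1 or more, and among members below 1 they were 42.9% and 45.2%, against 56.6% and 54.8%. Examples among strong members are Foxo3, whose peak lay 1015 bp upstream, Foxo6 at 591 bp, Tbx6 at 693 bp, Six5 at 524 bp and Nkx6-1 at 434 bp upstream. Foxk1, Foxk2, Foxn2, Foxj1 and Foxo1, in contrast, had their peak over the start. Of the members with a peak 77.0% and 75.0% had 2 or more promoter peaks, against 63.5% and 67.6% of genes. This depended on promoter class. Among CpG-rich promoters the shares were 88.2% and 84.5% of members against 75.7% and 79.97% of genes. Among other promoters members were lower, at 36.8% and 42.9% against 49.2% and 53.2%. The median width of the strongest peak was close to that of all genes, 240 against 220 bp in replicate 1 and 238.5 against 220 bp in replicate 2.

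Coding exons held the strongest peak of 8 members in replicate 1 (9.20%) and 14 in replicate 2 (15.2%), against 4.75% and 4.60% of genes. In replicate 1 these were Foxb2, Foxd3, Foxd4, Foxe1, Foxe3, Foxf2, Foxi2 and Nkx2-4, and many forkhead genes of this kind have a single coding exon. Several of these peaks were broad and low. The Foxd4 peak was 1300 bp wide at a value of 0.50, that of Foxe3 820 bp at 0.640, that of Foxb2 760 bp at 0.462 and that of Nkx2-4 740 bp at 0.887. They held 10 or 11 footprints each. The median over members in replicate 1 was 4 per strongest peak, at a median width of 240 bp. The counts were not scaled to width, so they do not show denser footprints in the broad peaks. Among all open genes with a mean below 1 the strongest peak was in a coding exon for 11.5% and 11.1%, and among members below 1 for 14.3% and 21.4%.

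Consensus letters were sought on both strands in 300 bp around each strongest promoter peak. The forkhead letters TGTTTAC were found in 4 of 87 member peaks in replicate 1 (4.60%) and 3 of 92 in replicate 2 (3.26%), against 1.87% and 1.93% of all promoter peaks. The letters of a family's own factors were looked up in replicate 1. TGTTTAC occurred in 2 of 39 Fox peaks, those of Foxo4 and Foxp2. The T-box letters AGGTGTGA, the homeobox letters TAATTA, the NKX2 letters CACTTGA and the sine oculis letters TCAGGTTTC occurred there in none of 10 Tbx, of 7 Lhx and 5 Dlx, of 9 Nkx and of 5 sine oculis peaks. TAATTA was in none of the members' promoter peaks and in 1.21% and 1.27% of all, and no match says only that these letters were not in this window. The short CCAAT box, searched after it was noticed in the printed sequences, was in 42 of 87 (48.3%) and 45 of 92 (48.9%), against 36.4% and 36.9%. The RFX half-site GTTGCC, added in the same way, was in 10.3% and 15.2% against 13.3% and 13.6%, lower than all genes in replicate 1 and higher in replicate 2.

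Around the promoters the members had somewhat more distal peaks than the median gene, but no more than genes with CpG-rich promoters. Distal means at most 50 kb from a start but in no promoter window of a protein-coding gene. Members had a median of 5 and 6 (5.5 ± 0.71, SD, n = 2), all genes 4 and 4, and CpG-rich genes 5 and 6. Fox genes had the highest family median at 6.5 ± 0.71 and Dlx the lowest at 3.75 ± 0.35, with the other families from 4.5 to 5.75 and overlapping within the spread between libraries. By role, the medians were 14.5 ± 0.71 for the 5 thymus and blood genes, 9.5 ± 3.5 for the broadly expressed, 6.75 ± 1.06 for the germ cell, 6.5 ± 0.71 for the gonad and 6 for the gut and lung list, and 4.25 ± 0.35 each for the brain and the heart lists.

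**Figure D5:**
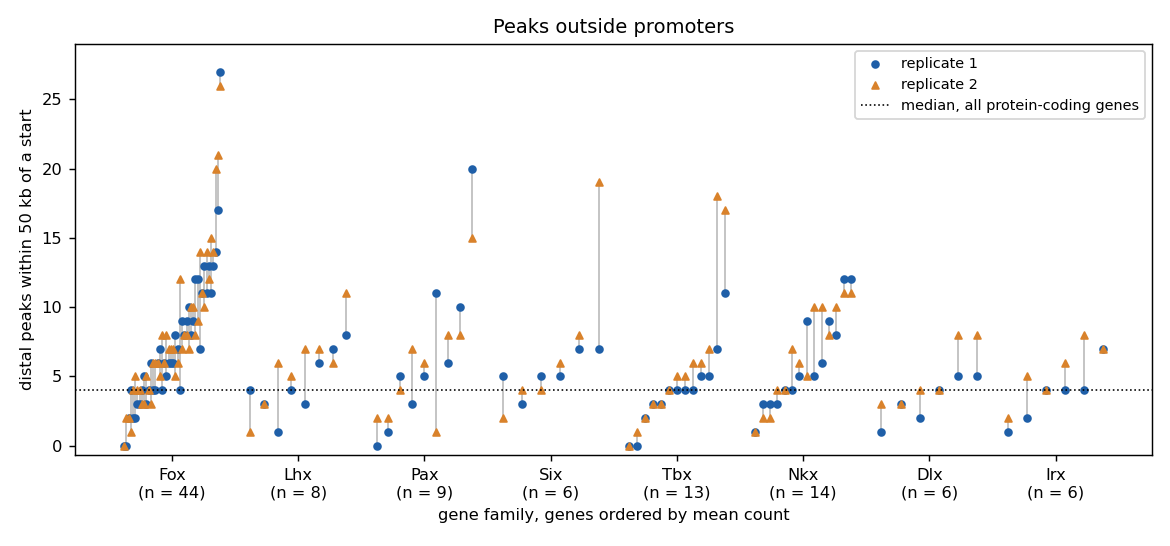
Number of distal peaks within 50 kb of a start for each member in replicate 1 (circles) and replicate 2 (triangles), joined by a line and ordered within each family; the dotted line is the median of all genes, 4. Foxn3 is highest with 27 and 26, and Six5, Tbx2 and Tbx4 have many more in replicate 2 than in replicate 1.

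The members with the most distal peaks were not always those with strong promoters. Foxn3 had 27 and 26, and Foxp1, a regulator of B cells and neurons, 17 and 21. Pax5 had 20 and 15. Foxn1 had 14 and 20 and Tbx4 11 and 17, although the former had no promoter peak and the latter only 0.328 in replicate 2. For genes with several distant starts, such as Foxn3, peaks were counted over a longer stretch. Many starts did not always go with many peaks: Foxp2, with 16 starts, had 4 and 4, and Pax6, with 24, had 0 and 2. The part of the number of starts in these counts was not tested. Six5 had 7 and 19, Tbx2 7 and 18, and Pax3 11 and 1, which shows how far libraries can part on such a count.

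The members' distal peaks had values close to those of distal peaks in general. They numbered 572 in replicate 1 and 662 in replicate 2, and their median value was 0.538 and 0.494 against 0.522 and 0.491 for distal peaks of all genes. Of these 79.2% and 67.7% overlapped a peak of the other library, against 82.0% and 68.5%. The letters AGATAA, bound by GATA factors, were in 9.97% and 12.5% of them against 14.9% and 15.0%, and TGTTTAC in 3.50% and 3.17% against 3.76% and 3.94%.

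A few distal peaks were far stronger than the promoter they lay near. The strongest in replicate 1 was 34.1 kb upstream of Foxk1 (chr5:142367321-142367540, mm10), at 13.5 and 9.01. Irx5 had a peak 1.4 kb upstream (chr8:92356101-92356300) at 11.5 and 13.0, while its promoter value was 0.688 and 0.638. The start of the noncoding gene Crnde lies within 1000 bp of that peak. Foxj2 had 1 at 9.64 and 11.9, 8.86 kb upstream of its nearest start and near the noncoding gene Gm5112.

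Other strong distal peaks lay near genes of different tissues. That 45.4 kb from Foxh1, a nodal signalling factor, lay inside Lrrc14 and Lrrc24 and had 5.14 and 6.45. That 47.7 kb from Nkx1-2 lay inside Fgfr2 and had 4.61 and 3.34. Foxo3 had a second strong peak 1.43 kb upstream of its start (chr10:42278081-42278280), at 7.47 and 7.27, just outside the promoter window. In Lhx6 an intron peak 2.72 kb inside the gene had 6.77 and 5.19, above the promoter's 1.38 and 1.97. A peak 24.6 kb downstream of the Foxl2 start (chr9:98979841-98980000) had 4.38 and 3.32, while the promoter had 0.532 and 0.536. In each of these cases both libraries listed the peak. The peaks were picked for their high values, so their height is not a separate result. Distance alone was used to assign peaks, and which gene each acts on was not tested.

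Genes that work with the members had higher median promoter values than the members. Cofactors such as the LIM-binding Ldb1, the EYA group that partners sine oculis proteins and the Groucho repressors of the TLE group were open in 19 of 20, at a median of 2.29 ± 0.40 (SD, n = 2). Tle4 had 25.6 and 23.7, Tle1 19.3 and 16.7, Eya3 7.63 and 8.69 and Ldb1 3.66 and 3.18. The list was mixed, since 7 of the 19 were below 1, among them Eya1 (mean 0.795), Eya4 (0.335), Ldb2 (0.483) and Dach1 (0.374), and Lmo3 had no peak. Genes for Polycomb subunits were open in 27 of 27 at 7.51 ± 0.26, all in the shorter list too. Of these 25 were CpG-rich, as were 15 of the 20 cofactors. CpG-rich genes were 98.0% open (95.5% in the shorter list) at a median of 5.95, and all genes 68.7% open at 1.36. The cofactors' median thus lay below that of CpG-rich genes. Related regulators under other symbols were closer to the members: 8 of 9 further LIM, T-box and homeobox genes were open at a median of 1.16 ± 0.27, led by Mga at 12.2 and 10.3, with none for the mesoderm gene T. The SOX and GATA genes had 22 of 25 open at 1.15 ± 0.018, with Sox12 at 9.95 and 9.30, the spermatid gene Sox30 at 8.61 and 9.04, and Sox4 at 5.59 and 6.48 the highest.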

How the data were processed

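DNase-seq of testis was available as 2 libraries of 1 group, and each was scored separately. Per the file headers and descriptions, the authors made these files per library from its own alignments on mm10, namely longer and shorter lists of peaks, footprints, and the false discovery rate along the genome. For the aligner, the callers and their versions, nothing is stated in the sources used here. The signal value in each deposited peak list was used as the authors set it, to describe and rank peaks. The deposited track gives a q-value, listed below 0.05, and the p-value column of the deposited footprints holds 0.01 in all rows, so only their positions were used. Under every peak the lowest rate was at most 0.0499 for the longer lists and 0.000992 for the shorter.

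Starts were those of all transcripts of 21911 protein-coding genes of GENCODE vM21 on chromosomes 1 to 19, X and Y, and an overlap of 1 bp counted. Values are given as mean and SD of the 2 libraries, with no test, since there was no second group. The spread between the libraries is the only measure of error, and it does not measure the spread among the genes of a family or list. The scoring was tested on simulated data with Python 3.11.15, numpy 2.4.6, pandas 2.3.3 and pysam 0.24.0. The 106 members, the lists of roles, cofactors and markers and the alternatives were chosen with earlier results of these data known. Roles come from textbook knowledge. Named were the 3 highest members of each family and up to 2 without a peak, all members of the germ cell and gonad lists, the 5 with the most distal peaks and the 5 with the largest difference between libraries, and all members with a peak in a single library. Some of these are not reported here. Other names, among them Foxj1 and the lowest open genes, were added after their values had been seen. Sequences followed the highest member of each family, leaving out bases annotated as UTR and runs shorter than 80 bases. Alternatives were other promoter windows, the 5′ end alone, the shorter list, peaks at or above the median value, an overlap of 50 bp, peaks of a single gene, other distal distances and each library left out.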

Additional observations from a re-analysis of the deposited data

How the results depend on the processing

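The number of open members was 83, and it ranged from 60 with the shorter list to 93 with windows of 2500 bp. With a single library it was 87 or 92. Members were above all genes in open share with windows of 500 bp (73.6% against 67.2%), windows of 2500 bp (87.7% against 71.7%), the 5′ end alone (70.8% against 64.0%) and unshared peaks (73.6% against 58.2%), and below them with the shorter list and with peaks at or above the median value. The median promoter value of 0.684 became 0.581 with windows of 500 bp, 0.801 with 2500 bp, 0.540 with the 5′ end alone and 0.634 without shared peaks, and was 0.670 to 0.699 with 1 library left out. The median of 5.5 distal peaks became 3 within 25 kb, 9.5 within 100 kb, 3 with the shorter list and 2 with peaks at or above the median value, since fewer or more peaks were counted, and was 5 to 6 with 1 library left out. Of the named genes, Foxj3, Pax6 and Six3 fell to 0 with the 5′ end alone, Foxm1 without shared peaks, and 10 genes with the shorter list. No paired analysis was possible because there was a single group. A missing peak means that none was listed, and the part of depth in weak or missing peaks was not tested, since library depths were not given in the sources used.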

Other observations

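Members that are neighbours on a chromosome differed in promoter value. There were 8 pairs with starts within 50 kb of each other. Their 50 kb windows overlap, so the sharing of most distal peaks follows largely from how distal peaks were defined. The 3 Dlx pairs lie tail to tail: Dlx1 had a mean value of 2.20 and Dlx2, 15.2 kb away, 1.08, while Dlx6 had 1.04 and Dlx5, 18.3 kb away, 0.242 from a single library. Dlx3 and Dlx4 had 0.543 and 0.471. In the cluster of Foxf1, Foxc2 and Foxl1 on chromosome 8, Foxc2 had 2.04, Foxf1 0.864 and Foxl1 no promoter peak, 11.8 kb from Foxc2. A distal peak of 4.49 and 2.66 lay 2.66 kb upstream of the Foxc2 start, inside Gm20388. Foxd2 had 4.73 and Foxe3, 17.1 kb away, 0.654.

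Of 4 members on chromosome X, 3 were open. Foxp3 and Foxo4 had the higher values, Tbx22, of palate development, had 0.473 and 0.593, and Foxr2 had no peak. Over all 948 genes of chromosome X 60.3% were open.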
